A study of Mus musculus with 10 samples.

Results

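The chemokine system of lung endothelium was described across 10 RNA-seq libraries of sorted mouse lung endothelial cells. Its genes were taken by name: annotated protein-coding genes called Ccl, Cxcl, Ccr, Cxcr or Ackr with a number, together with Cx3cl1, Cx3cr1, Xcl1, Xcr1, Pf4 and Ppbp. This gave 60 of the 55385 genes in the deposited table, of which 39 are ligands, 18 are signalling receptors and 3 are scavenging receptors. The rule left out an Ackr gene that matches this naming, so the scavenging receptors counted are not the full set. The rule itself used names only, with no expression value. Cxcl11 is annotated as a polymorphic pseudogene in this mouse genome, so it was not among the 60, and it had 9 counts over all libraries.

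Chemokines are small secreted proteins that direct the movement of leukocytes. They bind receptors coupled to G proteins on the migrating cell, and they are held on heparan sulfate at the endothelial surface, where rolling leukocytes meet them. Scavenging (atypical) receptors bind chemokines without G protein signalling and remove them. In the lung, endothelial Cxcl12 and Cx3cl1 meet Cxcr4 and Cx3cr1 on leukocytes, and lymphatic vessels make Ccl21, which guides dendritic cells through Ccr7. Inflammatory ligands such as Cxcl1, Ccl2 and Cxcl10 are low in resting endothelium and are induced by cytokines.

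In all mice both alleles of Tnfsf10 were flanked by loxP sites (Tnfsf10 L/L); this gene encodes TRAIL, a ligand that triggers cell death. The Tg/W group, which the labels call EC-TRAIL KO, also carried a Cre recombinase that is active only with tamoxifen and is driven by the endothelial Cdh5 promoter, and it had 5 libraries. The W/W group lacked this transgene, is labelled Control, and also had 5 libraries. Mice were 8 to 14 weeks old, and the protocol gives 1 mg of tamoxifen per mouse per day for 5 or 10 days, without saying which library had which course. Whether every library is from its own mouse is not stated, so the p-values rest on the spread between libraries, which may be technical. The design text counts 4 Tg/W animals, whereas 5 are labelled and present in the table.

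The libraries held 29806083 to 34702571 expected counts in the Tg/W group and 34435835 to 56897822 in the W/W group. Tnfsf10, the targeted gene, had 199, 318, 126, 169 and 81.0 CPM (counts scaled to a common library size) in the libraries labelled Tg/W 1 to 5, against 374, 370, 298, 323 and 305 CPM in W/W 1 to 5. It was below every W/W library in 4 of the 5 Tg/W libraries, and the library labelled Tg/W 2 lay within the W/W range. The log2 fold change was -0.90 ± 0.28 (SE), with an adjusted p of 0.425 in edgeR's quasi-likelihood test after Benjamini-Hochberg adjustment. Without the library labelled Tg/W 2 the log2 fold change was -1.21 and the edgeR adjusted p 0.0345, and over the other alternatives the edgeR, limma or DESeq2 adjusted p ran from 0.0513 to 0.801. Pan-endothelial markers were abundant: Cdh5 averaged 4038 ± 147 CPM in Tg/W libraries and 3822 ± 292 CPM in W/W libraries (SD, n = 5 each). Markers of other cells were present too, with Sftpc of alveolar epithelium at 4064 ± 472 CPM in Tg/W libraries and 4377 ± 1045 CPM in W/W libraries, and the leukocyte gene Ptprc at 3.24 ± 0.91 CPM in Tg/W libraries and 3.32 ± 1.19 CPM in W/W libraries. In such bulk samples, fewer cells of a type and less RNA per cell cannot be told apart.

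Of the 60 genes, 35 had enough counts to be tested: 24 ligands, 8 receptors and all 3 scavengers. Chemokine genes did not pass the test in either direction. At an adjusted p under 0.05 in edgeR's quasi-likelihood test, 0 of 35 were higher and 0 of 35 were lower in Tg/W libraries, where the shares over all 17997 genes tested were 0.439% higher and 0.0% lower. At an unadjusted p under 0.05, 2 of 35 passed, Cxcl9 and Ccl5, both higher in Tg/W, against 3.81% of all genes higher and 1.32% lower. The median log2 fold change was 0.03 over the 24 ligands and -0.08 over the 11 receptors and scavengers, beside -0.0085 over all genes tested. Of the 35 95% confidence intervals, 33 included 0, and 17 lay wholly between -1 and 1 on the log2 scale. DESeq2 and both limma fits also called 0 of the 35. Without the library labelled Tg/W 2, edgeR called 0 of 35 chemokine genes and 88 of all 18259 genes then tested. The count of all genes was not stable: it was 2 without any one W/W library or Tg/W 4, 3 without Tg/W 3, 155 without Tg/W 1, and 2 in both limma fits, while 0 chemokine genes passed in each.

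**Figure D1:**
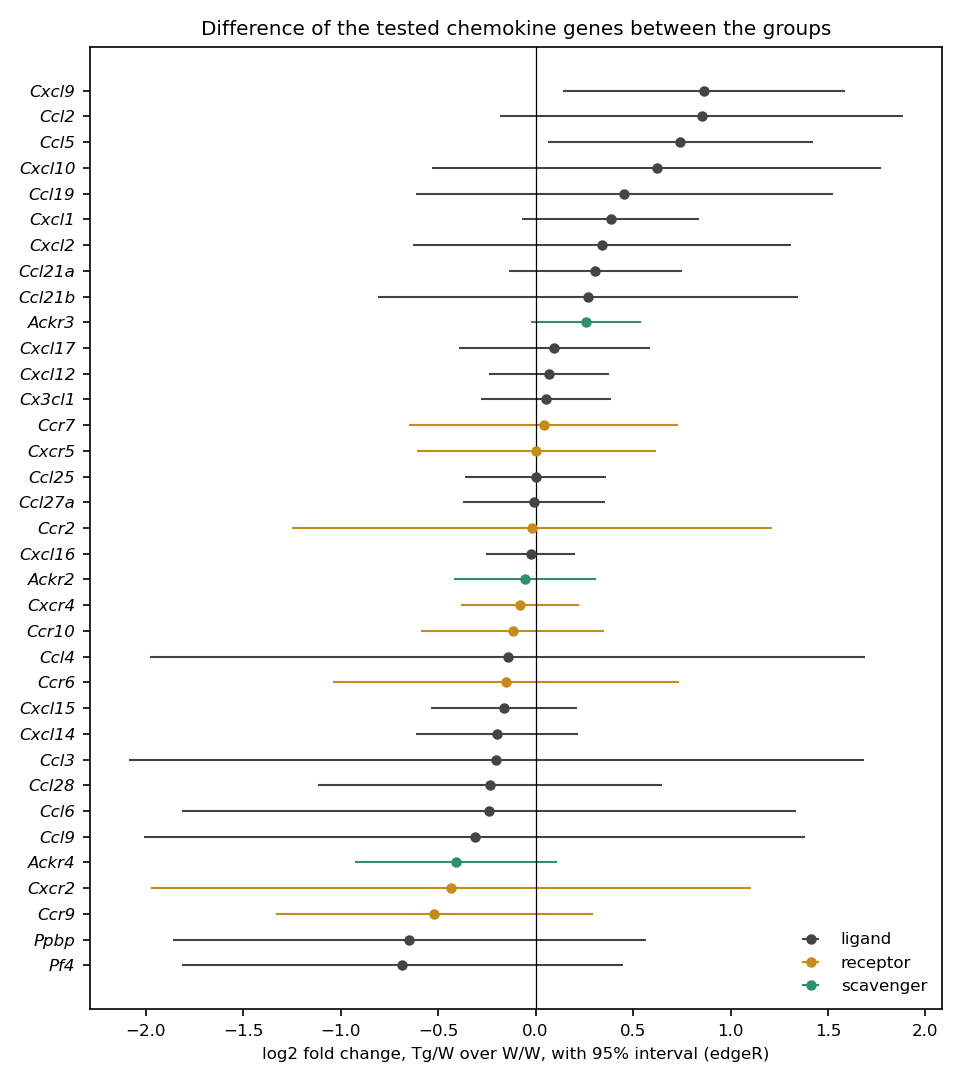
The log2 fold change of the 35 tested chemokine genes, Tg/W over W/W, from edgeR (points) with its 95% confidence interval (bars), coloured by role. The intervals of Cxcl9 and Ccl5 alone exclude 0, and those of Ccl3, Ccl4, Ccl6 and Ccl9 are among the widest.

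To compare genes with one another, levels were expressed per exon length as TPM (each library's length-scaled counts brought to a common total), averaged over all 10 libraries. Few genes made up most of the system. Ccl21a, Cxcl15, Cxcl12 and Cx3cl1 together held 89.95% ± 2.18 of the summed ligand TPM (SD over 10 libraries), Ccl21a alone 49.99%. Among the signalling receptors Cxcr4 held 86.2% ± 1.94 of the receptor TPM, and the next, Ccr10, held 3.22%. Of the scavengers counted here, Ackr3 held 57.5% ± 7.91 of their summed TPM and Ackr2 39.9% ± 7.88. In absolute terms 6 genes averaged at least 100 TPM, 9 averaged 10 to 100 TPM, 14 averaged 1 to 10 TPM and 31 were below 1 TPM. The highest group held 4 ligands and 2 scavengers and no signalling receptor. These levels are of RNA from all cells in the libraries, not of endothelial cells alone. By the same measure Sftpc averaged 15278 TPM and Cdh5 3502 TPM. The 9 alveolar epithelial markers summed to 22700 TPM, and the 10 pan-endothelial markers to 11241 TPM.

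**Figure D2:**
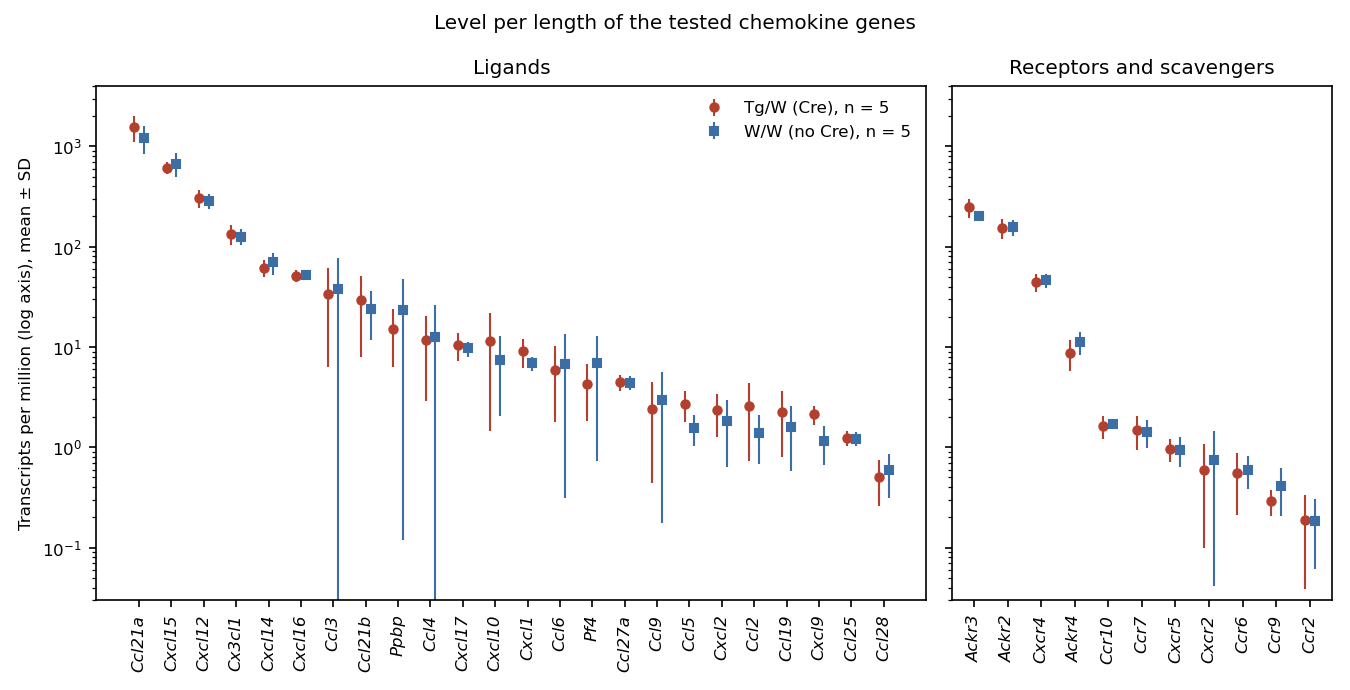
Mean level of each tested chemokine gene in TPM on a log axis, with bars of 1 SD, for Tg/W (circles) and W/W (squares), n = 5 libraries each. Ligands on the left span from 1382 TPM (Ccl21a, mean of all libraries) to 0.545 TPM (Ccl28), and a bar that runs to the lower edge belongs to an SD larger than the mean.

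Cxcl12, the ligand of Cxcr4 and Ackr3 and the most abundant chemokine by CPM, had 741, 775, 643, 655 and 478 CPM in the libraries labelled Tg/W 1 to 5, against 660, 593, 695, 720 and 468 CPM in W/W 1 to 5. The groups overlapped throughout, and replicate 5 was lowest in both. Its log2 fold change of 0.07 ± 0.14 (SE) had a 95% interval from -0.24 to 0.38, so a difference of 1 log2 unit lay outside it. Cx3cl1, a ligand tethered to the endothelial membrane by a stalk, had 157, 168, 135, 137 and 94.9 CPM in Tg/W 1 to 5, against 149, 144, 152, 123 and 98.8 CPM in W/W 1 to 5. The log2 fold change was 0.05 ± 0.15 (SE), and again replicate 5 was lowest in both groups. Cxcl16, the other membrane-anchored ligand, had 40.5, 35.5, 42.4, 52.2 and 36.0 CPM in Tg/W libraries, against 39.0, 46.2, 40.9, 44.9 and 39.1 CPM in W/W libraries. It was the steadiest of the tested chemokine genes, with a within-group SD of 0.178 on the log2 CPM scale and a log2 fold change of -0.02 ± 0.11 (SE).

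Ccl21a is a homeostatic ligand of Ccr7 made by lymphatic endothelium. It had 406, 481, 325, 307 and 248 CPM in the libraries labelled Tg/W 1 to 5, against 232, 262, 235, 439 and 260 CPM in W/W 1 to 5. Of the W/W libraries, number 4 stood apart, and the other 4 lay between 232 and 262 CPM. The log2 fold change was 0.31 ± 0.20 (SE), with a 95% interval from -0.14 to 0.75. It was 0.51 without W/W 4 and 0.17 without the library labelled Tg/W 2. Its near-identical copy Ccl21b averaged 3.11 ± 2.19 CPM in Tg/W libraries and 2.56 ± 1.27 CPM in W/W libraries. Since an expected count divides shared reads by a model, the split between the copies is uncertain, and their sum was 357 ± 92.9 CPM in Tg/W libraries and 288 ± 87.3 CPM in W/W libraries. Lymphatic markers did not move as 1 list with Ccl21a. Prox1, the transcription factor of lymphatic identity, had 40.5, 58.2, 27.3, 22.4 and 25.8 CPM in Tg/W 1 to 5, against 23.4, 22.9, 19.4, 30.1 and 27.3 CPM in W/W 1 to 5, highest in the library labelled Tg/W 2 and in W/W 4, as Ccl21a, Flt4 and Mmrn1 were. Lyve1, a hyaluronan receptor found on lymphatic vessels, and Pdpn, a surface protein listed as lymphatic, were lowest in those same libraries. Lyve1 had 545 CPM in the library labelled Tg/W 2 and 669 CPM in W/W 4. Pdpn had 40.7 CPM in the library labelled Tg/W 2 and 65.7 CPM in W/W 4. The alveolar epithelial markers Ager and Cldn18 were also lowest in both. Hopx and Cdh1, from the same alveolar list, were lowest in the library labelled Tg/W 2 and in W/W 1. How much Lyve1 and Pdpn came from cells other than lymphatic endothelium was not tested. None of the 6 lymphatic markers passed the edgeR test. At an unadjusted p under 0.05 in that test, 2 of 6, Flt4 and Reln, were higher in Tg/W libraries and 0 were lower. Over all genes tested, 3.81% were higher and 1.32% lower in this way. The log2 fold changes were 0.50 for Prox1, 0.38 for Reln, 0.34 for Mmrn1, 0.17 for Flt4, -0.02 for Lyve1 and -0.20 for Pdpn. The 6 markers summed to 1325 to 1744 CPM in Tg/W libraries and 1231 to 1673 CPM in W/W libraries, with Lyve1 the largest. Their part in the Ccl21a values was not tested.

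Cxcl15, known in mouse as lungkine and made by lung epithelium, attracts neutrophils. It had 331, 272, 404, 393 and 321 CPM in Tg/W 1 to 5, against 262, 508, 362, 325 and 470 CPM in W/W 1 to 5. The W/W group spanned a wider range than the Tg/W group, and the log2 fold change was -0.16 ± 0.17 (SE). The summed level of 9 alveolar epithelial markers was 6627 to 9682 CPM in Tg/W libraries and 8003 to 12030 CPM in W/W libraries. That sum was lowest in the library labelled Tg/W 2 and highest in W/W 2, the libraries that held the lowest Cxcl15 of the Tg/W group and the highest of the W/W group. Its part in the Cxcl15 values was not tested. Cxcl14, a homeostatic ligand of epithelium and stroma, had 26.1, 21.5, 38.6, 31.0 and 32.0 CPM in Tg/W libraries, against 32.7, 40.3, 39.8, 37.99 and 20.2 CPM in W/W libraries. The groups overlapped, at a log2 fold change of -0.20 ± 0.19 (SE).

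Among the scavengers, Ackr3 had the smallest p. Ackr3 (CXCR7) takes up Cxcl12 and shapes its gradient. It had 197, 226, 218, 296 and 159 CPM in the libraries labelled Tg/W 1 to 5, against 179, 188, 186, 185 and 178 CPM in W/W 1 to 5. The W/W libraries lay close together (SD 4.56 CPM), 4 of the 5 Tg/W libraries lay above all of them and number 5 lay below all of them (SD 50.2 CPM). The log2 fold change was 0.26 ± 0.13 (SE), with a 95% interval from -0.02 to 0.54 and an adjusted p of 0.997 in edgeR's quasi-likelihood test. Over the alternatives tried with edgeR, limma and DESeq2, the log2 fold change of Ackr3 ran from 0.13 to 0.35 and its lowest adjusted p was 0.319. The exact permutation test over the 252 ways of dividing the libraries gave p = 0.143 (two-sided), where 0.00794 is the smallest it can give.

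Ackr2 (D6), which degrades inflammatory CC chemokines and is known from lymphatic endothelium, had 137, 109, 143, 87.3 and 158 CPM in Tg/W 1 to 5, against 127, 126, 151, 95.2 and 160 CPM in W/W 1 to 5. Its groups ran in parallel, with number 4 lowest and number 5 highest in both, and the log2 fold change was -0.05 ± 0.17 (SE). Ackr4, which clears Ccl19, Ccl21 and Ccl25, had 14.7, 13.5, 17.0, 9.14 and 7.47 CPM in Tg/W libraries, against 17.5, 18.9, 18.9, 17.5 and 9.11 CPM in W/W libraries. The groups overlapped: W/W 5, at 9.11 CPM, lay below Tg/W 1 to 4, and only Tg/W 5 lay below every W/W library. The log2 fold change was -0.41 ± 0.24 (SE), with a 95% interval from -0.93 to 0.11 and an exact two-sided permutation p of 0.183.

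**Figure D3:**
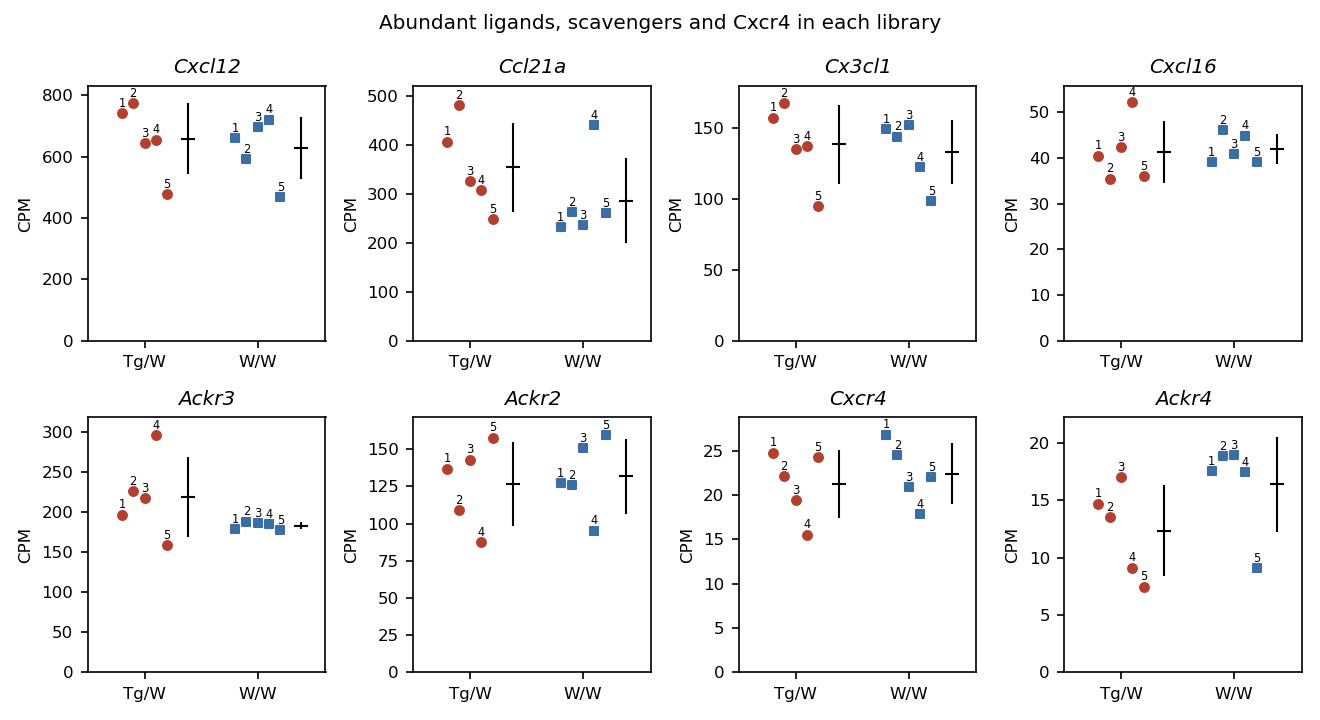
CPM of 4 abundant ligands (Cxcl12, Ccl21a, Cx3cl1, Cxcl16), the 3 scavengers and Cxcr4 in each library, numbered by replicate, with the group mean and SD beside the points (Tg/W left, W/W right, n = 5 each). The W/W points of Ackr3 lie between 178 and 188 CPM, W/W 4 stands apart for Ccl21a and W/W 5 for Ackr4.

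Cxcr4, the signalling receptor for Cxcl12, was the only signalling receptor with a mean of at least 10 TPM (45.3 TPM over all libraries). It had 24.8, 22.1, 19.4, 15.5 and 24.3 CPM in the libraries labelled Tg/W 1 to 5, against 26.8, 24.5, 20.9, 17.8 and 22.0 CPM in W/W 1 to 5. Number 4 was lowest in both groups and the log2 fold change was -0.08 ± 0.14 (SE). Ccr9, the receptor of Ccl25, had 0.992, 0.564, 0.835, 0.571 and 0.996 CPM in Tg/W libraries, against 1.45, 1.495, 0.363, 1.605 and 0.739 CPM in W/W libraries. Within W/W it varied more than between the groups, whose log2 fold change was -0.52 ± 0.37 (SE). Cxcr5, the B cell receptor for Cxcl13, had 0.875, 0.697, 0.922, 0.571 and 1.16 CPM in Tg/W libraries, against 1.199, 0.867, 0.449, 0.889 and 0.799 CPM in W/W libraries, at a log2 fold change of 0.0036 ± 0.28 (SE). The other 5 tested receptors all averaged under 1 CPM. Their log2 fold changes were -0.12 for Ccr10, 0.04 for Ccr7, -0.43 for Cxcr2, -0.15 for Ccr6 and -0.02 for Ccr2. Of the signalling receptors, 10 failed the filter, with at most 127 counts each over all libraries; they included Ccr1, Cxcr6, Ccr4, Cx3cr1, Xcr1, Ccr3, Cxcr3, Cxcr1 and Ccr8.

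Ligands and their signalling receptors stood at unlike levels in these sorted cells. Cx3cl1 averaged 130 TPM where its receptor Cx3cr1 averaged 0.101 TPM, and Cxcl16 averaged 51.6 TPM where Cxcr6 averaged 0.520 TPM. Ccl21a averaged 1382 TPM where Ccr7 averaged 1.45 TPM. Cxcl12 averaged 295 TPM beside 45.3 TPM of Cxcr4, the only signalling receptor with a mean of at least 10 TPM. Scavengers are not part of this contrast. Ackr3, which takes up Cxcl12, averaged 225 TPM, Ackr2 155 TPM, and Ackr4, which clears Ccl21, 10.03 TPM. Cxcr3, the receptor for Cxcl9 and Cxcl10, averaged 0.106 TPM, against 1.65 TPM of Cxcl9 and 9.52 TPM of Cxcl10. Other pairs were low on both sides: Xcr1 averaged 0.0874 TPM and Xcl1 0.0537 TPM, Ccr3 averaged 0.0643 TPM and Ccl11 0.339 TPM, and Ccr8 and Ccl1 were both at 0 counts.

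The ligands that cytokines induce were low. Cxcl9, an interferon-inducible ligand of Cxcr3, had 1.31, 1.99, 1.90, 2.07 and 1.26 CPM in the libraries labelled Tg/W 1 to 5, against 0.304, 0.782, 1.197, 1.26 and 1.18 CPM in W/W 1 to 5. Every Tg/W library was above every W/W library, although Tg/W 5 and W/W 4 both round to 1.26 CPM. Over all genes tested, 1.38% were above in this way and 0.261% below, and Cxcl9 was the single case above and there were 0 below among the 35 chemokine genes. Its log2 fold change was 0.86 ± 0.33 (SE), with a 95% interval from 0.14 to 1.59, an unadjusted p of 0.0234 and an adjusted p of 0.805 in edgeR's quasi-likelihood test. Over the alternatives tried with edgeR, limma and DESeq2 the lowest adjusted p of Cxcl9 was 0.281, and the log2 fold change ran from 0.63 to 1.11. The exact two-sided permutation p was 0.00794, the smallest that 5 against 5 can give.

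Its neighbour Cxcl10, another ligand of Cxcr3, had 3.88, 6.20, 3.57, 18.1 and 3.12 CPM in Tg/W 1 to 5, against 3.46, 3.11, 2.71, 10.4 and 2.99 CPM in W/W 1 to 5. One library in each group, number 4, stood far above the others, and the log2 fold change was 0.62 ± 0.53 (SE). It was -0.11 without Tg/W 4 and 1.18 without W/W 4. Cxcl1, a neutrophil attractant that binds Cxcr2, had 3.65, 4.41, 4.00, 7.24 and 3.32 CPM in Tg/W libraries, against 3.56, 3.42, 3.12, 4.23 and 2.99 CPM in W/W libraries. Number 4 was again the highest of both groups, and the log2 fold change was 0.39 ± 0.21 (SE), or 0.15 without Tg/W 4. Ccl2, the monocyte attractant that binds Ccr2, had 0.438, 1.49, 0.375, 1.202 and 0.332 CPM in Tg/W libraries, against 0.343, 0.272, 0.321, 0.802 and 0.385 CPM in W/W libraries. The library labelled Tg/W 2 and both number 4 libraries were high, and the log2 fold change was 0.85 ± 0.48 (SE), or 0.47 without the library labelled Tg/W 2. Ccl5 (RANTES), an attractant of T cells and monocytes, had 0.496, 0.829, 0.403, 0.721 and 0.996 CPM in Tg/W libraries, against 0.285, 0.629, 0.406, 0.325 and 0.385 CPM in W/W libraries. The groups overlapped, and the log2 fold change of 0.74 ± 0.31 (SE) had an adjusted p of 0.882 in edgeR's quasi-likelihood test and an exact two-sided permutation p of 0.0556.

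Among the transcription regulators listed as inducers, Nfkbia, the inhibitor that NF-kB itself induces, had 370, 362, 430, 658 and 458 CPM in Tg/W 1 to 5, against 402, 396, 496, 597 and 455 CPM in W/W 1 to 5. It was highest in number 4 of both groups, as was Relb, an NF-kB subunit, with 60.1 CPM in Tg/W 4 and 46.1 CPM in W/W 4. Relb was 23.3 to 51.9 CPM in the other Tg/W libraries and 18.7 to 32.7 CPM in the other W/W libraries. Rel was also highest in number 4 of both groups, and no other tested gene listed as an inducer was. Irf1 and Irf9, from the same list, were lowest in number 4 of both groups. Irf1 had 240 CPM in Tg/W 4 and 257 CPM in W/W 4. Nfkbia and Relb were picked for display after their values were seen. Their part in the number 4 values of Cxcl10, Cxcl1 and Ccl2 was not tested.

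**Figure D4:**
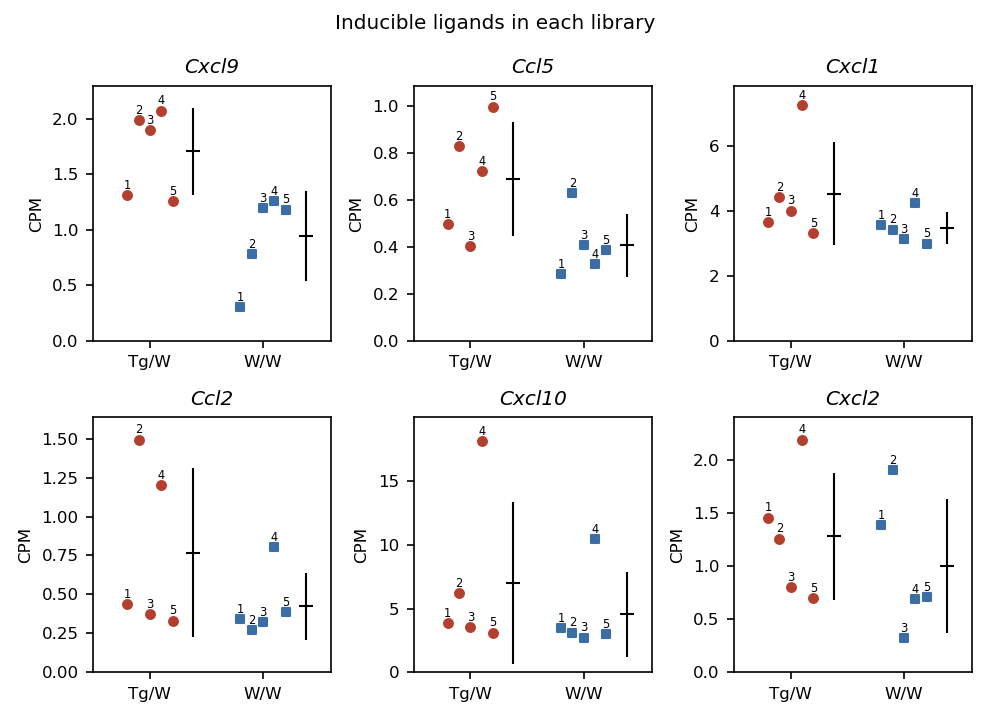
CPM of 6 inducible ligands in each library, numbered by replicate, with the group mean and SD beside the points (Tg/W left, W/W right, n = 5 each). Number 4 is the highest of both groups for Cxcl10 and Cxcl1, and the Cxcl9 points of Tg/W begin where those of W/W end.

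The sequences before the transcription start are shown for Cxcl9, which had the smallest p, and for Cxcl10, Cxcl1 and Cxcl2, whose Tg/W maximum lay in the same library. Each run is the 250 bases before the RefSeq start in GRCm38.p6, read 5′ to 3′ on the gene's strand. Capitals mark matches to 4 motifs searched on both strands: the NF-kB consensus, the interferon-stimulated response element, AP-1 (TGANTCA) and C/EBP (TTGCNNCAA).
Cxcl9: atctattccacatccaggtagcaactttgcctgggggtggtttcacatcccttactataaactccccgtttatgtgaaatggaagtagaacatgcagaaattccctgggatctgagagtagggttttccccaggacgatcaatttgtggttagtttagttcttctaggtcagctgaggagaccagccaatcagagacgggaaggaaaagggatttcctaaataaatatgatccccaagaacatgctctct
Cxcl10: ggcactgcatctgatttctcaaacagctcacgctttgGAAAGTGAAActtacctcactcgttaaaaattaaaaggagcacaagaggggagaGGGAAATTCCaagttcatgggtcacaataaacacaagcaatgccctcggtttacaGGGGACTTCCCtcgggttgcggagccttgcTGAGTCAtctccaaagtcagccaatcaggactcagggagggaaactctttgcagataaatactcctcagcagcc
Cxcl1: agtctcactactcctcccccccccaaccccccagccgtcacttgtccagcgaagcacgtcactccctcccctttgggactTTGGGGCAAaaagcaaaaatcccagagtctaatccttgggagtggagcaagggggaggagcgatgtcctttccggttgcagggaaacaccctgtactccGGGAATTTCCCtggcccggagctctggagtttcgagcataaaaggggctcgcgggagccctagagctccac
Cxcl2: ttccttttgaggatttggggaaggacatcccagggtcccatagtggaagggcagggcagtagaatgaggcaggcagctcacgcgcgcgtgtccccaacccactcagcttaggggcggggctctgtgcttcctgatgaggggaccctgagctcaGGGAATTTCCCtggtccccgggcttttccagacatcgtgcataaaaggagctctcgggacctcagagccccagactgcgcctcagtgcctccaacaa
The Cxcl10 stretch, chr5:92348890-92349139 on the minus strand, held a response element at 213 bases before the start, NF-kB matches at 159, 104 and 103 bases, the last 2 overlapping, and an AP-1 match at 74 bases. The Cxcl1 stretch, chr5:90890995-90891244 on the plus strand, held overlapping NF-kB matches at 71 and 70 bases and a C/EBP match at 170 bases. The Cxcl2 stretch, chr5:90903649-90903898 on the plus strand, held overlapping NF-kB matches at 97 and 96 bases. The Cxcl9 stretch, chr5:92328080-92328329 on the minus strand, held none of the 4. An AP-1 match of Cxcl9 (TGACTCA) lay after the start, outside the stretch shown, and is counted in the window shares that follow. Windows of 300 bases, which add 50 bases after the start, were available for 46 of the 60 genes (53 windows). Of these, 22.6% held the NF-kB consensus, beside 8.46% of all 32851 windows, 5.66% the response element, beside 3.44%, 18.9% the AP-1 letters, beside 7.81%, and 5.66% the C/EBP letters, beside 2.08%. A match describes letters and does not show that a factor binds there.

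Ccl3, Ccl4, Ccl6 and Ccl9 are inflammatory CC ligands of myeloid cells whose genes lie within 91.8 kb on chromosome 11 (83572919 to 83664683, GRCm38). Their spread within groups was the widest of the 35 tested chemokine genes. Ccl3 had 14.8, 8.49, 1.18, 4.99 and 4.05 CPM in the libraries labelled Tg/W 1 to 5, against 14.9, 16.9, 0.833, 0.239 and 5.47 CPM in W/W 1 to 5. The highest W/W library was 70.8 times the lowest, against 12.5 times within Tg/W, and the log2 fold change of -0.20 ± 0.87 (SE) had a 95% interval from -2.09 to 1.69. The 4 ligands together had 28.7, 17.1, 2.996, 10.6 and 7.67 CPM in Tg/W 1 to 5, against 30.6, 33.1, 2.07, 0.846 and 10.9 CPM in W/W 1 to 5. They were high together in number 1 and 2 of both groups and low together in number 3 of both groups and in W/W 4. The log2 fold changes of the other 3 were -0.14 for Ccl4, -0.24 for Ccl6 and -0.31 for Ccl9. Ccl5, which lies beside them on chromosome 11, did not share this order.

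A list of 6 genes taken as basophil markers was chosen after these values were seen (Mcpt8, Ms4a2, Fcer1a, Cd200r3, Cpa3 and Cyp11a1). It summed to 10.6, 8.69, 1.33, 3.04 and 2.32 CPM in Tg/W 1 to 5, against 11.7, 11.9, 1.11, 0.520 and 4.88 CPM in W/W 1 to 5. The order over libraries was that of the 4 ligands, which is not an independent result given that choice. Which cells these 6 genes came from was not tested. All 6 were detected, although Fcer1a was at 0 in W/W 4. The sum of 10 macrophage and monocyte markers was 1576, 1082, 1406, 1380 and 1297 CPM in Tg/W 1 to 5. In W/W 1 to 5 that sum was 1280, 1905, 1322, 1257 and 1631 CPM. It was highest in Tg/W 1 and W/W 2, as the 4 ligands were. It was lowest in the library labelled Tg/W 2 and in W/W 4, whereas the ligands were lowest in Tg/W 3 and W/W 4. The sum of the 9 alveolar epithelial markers was also lowest in the library labelled Tg/W 2 and in W/W 4, and highest of the W/W group in W/W 2. Of the 10 macrophage and monocyte markers, 7 had enough counts to be tested. How much of their sum came from other cells was not tested. The sum of 4 pan-leukocyte genes was 6.05 to 14.5 CPM in Tg/W libraries and 4.21 to 14.96 CPM in W/W libraries, and it was lowest in number 3 of both groups, where W/W 4, the lowest W/W library for the ligands and the basophil markers, had 6.92 CPM. Cxcr2, the neutrophil receptor for Cxcl1, had 0.963, 0.763, 0.173, 0.150 and 0.266 CPM in Tg/W libraries, against 1.18, 1.27, 0.107, 0.173 and 0.325 CPM in W/W libraries, and so was likewise high in numbers 1 and 2. The sum of 7 neutrophil markers was 1.73 to 2.29 CPM in Tg/W libraries and 1.69 to 2.37 CPM in W/W libraries, and Ly6g, a defining one, was at most 0.0332 CPM in Tg/W libraries and 0.0592 CPM in W/W libraries. The part of these cells in the ligand values was not tested. The stretches before Ccl9, Ccl6 and Ccl3 are shown because the 3 genes went up and down together over the libraries. The same 4 motifs are in capitals, and Ccl4 is named without a sequence.
Ccl9: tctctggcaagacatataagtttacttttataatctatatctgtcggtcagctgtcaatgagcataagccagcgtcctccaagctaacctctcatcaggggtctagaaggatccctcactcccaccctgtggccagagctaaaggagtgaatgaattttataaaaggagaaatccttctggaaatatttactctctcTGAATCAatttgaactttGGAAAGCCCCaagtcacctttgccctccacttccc
Ccl6: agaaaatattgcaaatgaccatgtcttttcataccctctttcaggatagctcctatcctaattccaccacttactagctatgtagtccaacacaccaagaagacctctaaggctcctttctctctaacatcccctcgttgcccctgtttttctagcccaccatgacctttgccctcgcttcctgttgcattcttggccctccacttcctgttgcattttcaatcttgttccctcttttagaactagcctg
Ccl3: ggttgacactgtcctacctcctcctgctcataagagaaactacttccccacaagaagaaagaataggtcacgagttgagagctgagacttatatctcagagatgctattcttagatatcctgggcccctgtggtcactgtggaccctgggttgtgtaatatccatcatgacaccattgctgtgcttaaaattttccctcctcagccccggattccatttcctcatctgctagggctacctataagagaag
The Ccl9 stretch, chr11:83578637-83578886 on the minus strand, held an AP-1 match at 53 bases and an NF-kB match at 35 bases before the start. The stretches of Ccl6 (chr11:83593088-83593337) and Ccl3 (chr11:83649379-83649628), both on the minus strand, held none of the 4 motifs.

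The platelet chemokines were highest in another library. Ppbp, which is stored in platelet granules, had 2.65, 4.08, 5.27, 8.47 and 1.46 CPM in Tg/W 1 to 5, against 2.95, 3.82, 4.47, 19.1 and 4.14 CPM in W/W 1 to 5. W/W 4 stood far above the rest, with number 4 also the highest of Tg/W. The log2 fold change was -0.65 ± 0.56 (SE), and it was 0.19 without W/W 4. Pf4, its granule companion, averaged 0.826 ± 0.500 CPM in Tg/W libraries and 1.33 ± 1.19 CPM in W/W libraries, and its log2 fold change of -0.68 was 0.04 without W/W 4. The sum of 5 platelet markers (Itga2b, Gp1ba, Gp9, Treml1 and Gp6) was 11.4, 12.5, 13.4, 26.3 and 10.8 CPM in Tg/W 1 to 5, against 17.1, 14.7, 12.5, 30.2 and 10.6 CPM in W/W 1 to 5. It was highest in the same libraries, and its part in the Ppbp and Pf4 values was not tested.

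**Figure D5:**
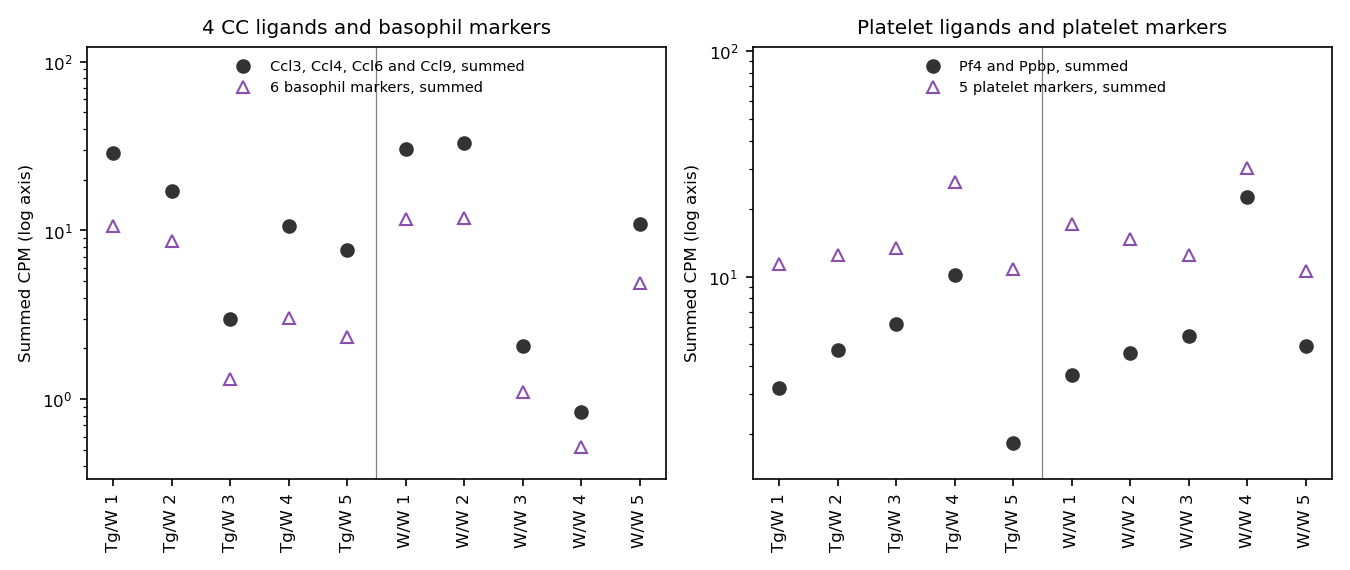
Summed CPM on a log axis in each library, Tg/W left of the line and W/W right of it. Left, Ccl3, Ccl4, Ccl6 and Ccl9 (circles, 0.846 to 33.1 CPM) with 6 basophil markers (triangles); right, Pf4 and Ppbp (circles, 1.83 to 22.5 CPM) with 5 platelet markers (triangles). In each panel the ligands and the markers are highest in the same library of each group, and the basophil list was chosen after the values were seen.

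The remaining tested ligands were low. Cxcl17 averaged 2.12 ± 0.63 CPM in Tg/W libraries and 1.98 ± 0.32 CPM in W/W libraries. Ccl27a, a skin-type ligand of Ccr10, averaged 2.79 ± 0.49 CPM in Tg/W libraries and 2.81 ± 0.44 CPM in W/W libraries. Ccl25, the ligand of Ccr9, averaged 2.44 ± 0.37 CPM in both groups, the closest match of the 35, and its 95% interval ran from -0.36 to 0.36 on the log2 scale. Cxcl2, the neutrophil attractant encoded beside Cxcl1, averaged 1.28 ± 0.60 CPM in Tg/W libraries and 1.00 ± 0.63 CPM in W/W libraries. Ccl28, a mucosal ligand of Ccr10, averaged 0.654 ± 0.332 CPM in Tg/W libraries and 0.761 ± 0.342 CPM in W/W libraries. Ccl19, the other ligand of Ccr7, averaged 0.518 ± 0.342 CPM in Tg/W libraries and 0.375 ± 0.230 CPM in W/W libraries. The 15 ligands that failed the filter were Ccl22, Cxcl13, Ccl11, Ccl17, Cxcl5, Cxcl3, Ccl7, Ccl20, Xcl1, Ccl24, Ccl27b, Ccl8, Ccl12, Ccl26 and Ccl1. Ccl12, Ccl26, Ccl1 and the receptor Ccr8 had 0 counts in all libraries, which at these depths allows up to 3 counts for each, a floor that covers counting error only.

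Spread within groups was described over all tested genes. The median within-group SD of log2 CPM was 0.522 over the 35 tested chemokine genes, beside 0.230 over all 17997 genes. Among genes with a mean of at least 10 CPM it was 0.305 for the 10 chemokine genes and 0.147 for all 9528. The same replicate number was highest in both groups for 10 of 35 chemokine genes (28.6%), beside 31.6% of all genes, and lowest in both for 11 (31.4%), beside 34.3%.

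The machinery around the chemokines was followed through 5 lists. In edgeR's quasi-likelihood test with Benjamini-Hochberg adjustment over all genes, 0 of 6 other chemokine-binding genes, 0 of 32 genes of receptor signalling, 0 of 19 genes of heparan sulfate, 0 of 5 chemokine-cleaving proteases and 0 of 17 inducers passed in either direction. At an unadjusted p under 0.05 the lists held 0, 2, 2, 1 and 0 genes, while 5.13% of all genes lay under it. The medians of log2 fold change were -0.0080, 0.0058, -0.03, -0.0055 and 0.03, in the same order. Hs6st2, a heparan sulfate sulfotransferase, had 0.438, 0.365, 0.490, 0.541 and 0.597 CPM in Tg/W 1 to 5, against 0.647, 0.969, 0.791, 0.846 and 1.18 CPM in W/W 1 to 5. Every Tg/W library lay below every W/W library, as for 0.261% of all genes tested. The log2 fold change was -0.86 ± 0.23 (SE), with an edgeR adjusted p of 0.268. Sulf2, which trims sulfate groups from heparan sulfate, had a log2 fold change of 0.35 ± 0.15 (SE) and an edgeR adjusted p of 0.900. Dpp4, the protease that clips Cxcl12 and other chemokines at their amino end, averaged 161 ± 21.9 CPM in Tg/W libraries and 199 ± 20.8 CPM in W/W libraries, with a log2 fold change of -0.31 ± 0.10 (SE) and an edgeR adjusted p of 0.501. In receptor signalling, the phospholipase Plcb2 had a log2 fold change of -0.44 ± 0.18 (SE) and the receptor kinase Grk6 one of 0.19 ± 0.09 (SE). For Grk6 every Tg/W library lay above every W/W library, as for 1.38% of all genes tested, and the edgeR adjusted p was 0.955. Gpr182, an endothelial receptor that also binds chemokines, averaged 167 ± 39.8 CPM in Tg/W libraries and 166 ± 38.3 CPM in W/W libraries.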

How the data were processed

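RNA was made from sorted lung endothelial cells with TRIzol and poly-adenylated RNA was converted with a stranded kit, per the labels' protocols. Expected counts per gene, unnormalized, were deposited for 10 libraries, which were matched to samples by title. The submitters' processing notes name STAR 2.7.1a, RSEM 1.2.28 and GRCm38. Which annotation, filters and strand option the authors used is not given in the sources used here, so values of overlapping genes and near-identical copies are uncertain. Of the table's values, 81.2% were whole. Symbols and positions came from GENCODE M21, in which 55144 identifiers matched without version and 241 did not.

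Expected counts were rounded and tested with edgeR 4.0.16 in R 4.3.3: filterByExpr (minimum count 10), TMM factors, the quasi-likelihood F-test and Benjamini-Hochberg adjustment over 17997 genes at 0.05. Depth per sample was 29806083 to 56897822 expected counts. Checks on simulated data came first. CPM used TMM library sizes, and TPM used the expected counts and the union of exons. Single genes also had an exact two-sided permutation test of mean log2 CPM. No pair of libraries agreed within sampling noise (smallest chi-square per degree of freedom 20.6).

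Genes given in every library were the 10 tested ligands and the 6 tested receptors and scavengers with the highest mean CPM, the 6 tested genes with the smallest p, and Tnfsf10. The rule that picks the 60 genes uses names only, but the choice of this gene family, the other lists and the rules were made with earlier results of these data known. Other genes shown by library (Prox1, Nfkbia, Relb, Cxcr2, Hs6st2) and the basophil list were chosen after their values were seen. Alternatives were other scalings, no filter or a mean CPM of at least 1, DESeq2 1.42.0, limma 3.58.1 (voom, with and without sample weights), a replicate block, a covariate of 61 tested markers of other cells, and leaving out each library. Promoters are from RefSeq. Not every gene counted is reported here by name.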

Additional observations from a re-analysis of the deposited data

Results flagged for a closer look

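Of 72 sets of 5 libraries (35 chemokine genes and Tnfsf10 in each group), 8 had a library whose gap to its nearest neighbour was over 0.71 of the group's range. Chance flags about 1 in 20 sets of independent, normally distributed values. The sets here are CPM without a log scale and share the same 10 libraries, so the 8 cannot be read against that rate. Tg/W 4 was far above the other Tg/W libraries for Cxcl10 (18.1 CPM) and Cxcl1 (7.24 CPM). W/W 4 was far above the other W/W libraries for Cxcl10 (10.4 CPM), Ccl21a (439 CPM), Ppbp (19.1 CPM), Pf4 (3.45 CPM) and Ccl2 (0.802 CPM). W/W 5 was far below the other W/W libraries for Ackr4 (9.11 CPM).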

How the results depend on the processing

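In each of the 19 alternatives 0 chemokine genes passed, with 56 tested without a filter and 24 where the mean had to reach 1 CPM; the lowest adjusted p of any was 0.220 (Ackr4, edgeR with a replicate block). The count of all genes passing, 79, was 2 with library size alone, with limma-voom, with sample quality weights and with the marker covariate, 143 without a filter, 211 with DESeq2, 149 with the replicate block, and 2 to 155 on leaving out 1 library (88 without the library labelled Tg/W 2). It was 2 without any one W/W library or Tg/W 4, 3 without Tg/W 3 and 155 without Tg/W 1. The ligand median ran from -0.0091 to 0.17 and the receptor and scavenger median from -0.22 to 0.01 on leaving out 1 library. The cause was not tested. Replicate numbers were not taken to pair the samples, because no label says that they mark shared mice or days. Same-numbered libraries had correlations of deviations of 0.227, 0.068, 0.21, 0.433 and 0.114. The libraries labelled Tg/W 1, 3, 4 and 5 each correlated best with the W/W library of the same number. The library labelled Tg/W 2 correlated best with W/W 1 (0.213). The main fit and the permutation tests leave out anything that same-numbered libraries share, and what they share was not tested. With the replicate block the ligand median was 0.11, the receptor and scavenger median -0.08, and 0 chemokine genes passed. Of the 35 log2 fold changes, 14 kept their sign in every alternative and 21 turned in at least 1, of which 12 turned only on leaving out a library; none of these had passed. Ccl3 became 0.58 with limma-voom, 0.28 with the block and 0.19 with the covariate, Ccl4 0.68, 0.37 and 0.21, and Ccl6 0.35, 0.19 and 0.035. Ccl25 became 0.0017 with library size alone, 0.00049 with DESeq2, 0.0081 with limma-voom, 0.0048 with the block and 0.030 with the covariate. Ccr7 became -0.019 with limma-voom and -0.33 with quality weights, Ccl21b -0.11 and Ccl27a 0.050 with quality weights, Cxcr5 -0.0058 without a filter and Ccr2 0.058 with the covariate. On leaving out 1 library the log2 fold changes ran from -0.11 to 0.07 for Ccl27a, -0.11 to 1.18 for Cxcl10, -0.16 to 0.17 for Cxcr5, -0.015 to 0.22 for Cxcl17, -0.55 to 0.37 for Ccr2, -0.049 to 0.52 for Ccl21b, -1.10 to 0.043 for Pf4, -0.90 to 0.024 for Cxcr2, -0.15 to 0.015 for Cxcr4, -0.63 to 0.37 for Ccl4, -0.093 to 0.23 for Ccr7, -0.77 to 0.14 for Ccl9, -0.12 to 0.026 for Cxcl16, -0.093 to 0.054 for Ccl25, -1.03 to 0.19 for Ppbp, -0.15 to 0.054 for Ackr2, -0.68 to 0.19 for Ccl6, -0.036 to 0.16 for Cx3cl1, -0.72 to 0.32 for Ccl3, -0.019 to 0.17 for Cxcl12 and -0.40 to 0.051 for Ccr6. Depth limits the low genes: the 25 not tested had at most 127 counts each over all libraries. With the longest transcript in place of the exon union, the level was 36.4 TPM for Cxcr4 (45.3 by exon union), 16.1 TPM for Ackr4 (10.03) and 0.557 TPM for Ccr9 (0.351).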
